A study of Homo sapiens with 24 samples.

Results

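The MYC, MAX and MXD network is a family of transcription factors with a basic helix-loop-helix leucine zipper, and 10 of its genes were followed: MYC, MYCN, MYCL, MAX, MXD1, MXD4, MXI1, MNT, MGA and MLX. They were chosen by name. Every probe set, a group of short probes that reads a transcript, was taken if its only gene symbol was one of these 10. That gave 44 of the 44988 probe sets that named a single gene, and 10 of 18132 genes. That MYC is high in U2-OS and low in SJSA-1 was already part of the choice, so its levels in the untreated lines are given as a description.

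RNA of SJSA-1 and U2-OS, 2 established human osteosarcoma cell lines, was measured on 24 Affymetrix PrimeView arrays. Each line had been kept for 6 h with 25, 100 or 400 nM THZ2, a covalent inhibitor of the transcription kinase CDK7, or with DMSO, the solvent. Each of the 8 groups held 3 arrays. The labels name no allele, transgene or other agent in any group, and do not say whether the 3 arrays were separate cultures, so the p-values measure only the spread between these arrays.

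MYC, MYCN and MYCL pair with MAX, bind the E-box CACGTG and activate transcription. MXD1, MXD4, MXI1 and MNT compete with them for MAX and bring a SIN3 and HDAC corepressor to the same sites, and MGA ties MAX to a Polycomb complex called PRC1.6. MLX resembles MAX, pairs with MXD1, MXD4 and MNT, and also with MLXIP and MLXIPL, which respond to glucose. MYC is one of the best known oncogenes of osteosarcoma, and its messenger RNA is short-lived.

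Because the E-box is the sequence that these proteins bind, it was looked for in the members' own promoters. The RefSeq promoter table of GRCh38.p14 was matched by symbol for 9 of the 10 members, all but MYC, with 14 promoters. CACGTG, which reads the same on both strands and was not counted with any other motif, stood in the 250 bases before the start in 3 of these 14, those of MLX, MNT and MXD4. Among all 35116 promoters of that length, 2228 held it, or 6.34%. The 3 promoters are shown from 5′ to 3′ on the strand of the gene, with the E-box in capitals. That of MLX lies at chr17:42566850-42567099 on the + strand, with the E-box starting 50 bases before the gene start. That of MNT lies at chr17:2401061-2401310 on the - strand, with the E-box 193 bases before it. That of MXD4 lies at chr4:2262110-2262359 on the - strand, with the E-box 238 bases before it. A match of letters is a description of the sequence and not of binding.
MLX: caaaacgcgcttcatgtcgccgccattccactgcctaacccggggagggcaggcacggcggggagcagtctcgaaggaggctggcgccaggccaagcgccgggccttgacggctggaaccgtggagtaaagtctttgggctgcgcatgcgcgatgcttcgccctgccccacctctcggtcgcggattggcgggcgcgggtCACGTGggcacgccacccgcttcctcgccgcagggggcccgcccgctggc
MNT: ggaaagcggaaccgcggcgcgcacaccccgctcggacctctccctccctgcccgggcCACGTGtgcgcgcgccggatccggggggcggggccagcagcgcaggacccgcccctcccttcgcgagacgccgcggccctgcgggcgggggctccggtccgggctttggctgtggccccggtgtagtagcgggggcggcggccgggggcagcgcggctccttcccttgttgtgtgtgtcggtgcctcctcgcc
MXD4: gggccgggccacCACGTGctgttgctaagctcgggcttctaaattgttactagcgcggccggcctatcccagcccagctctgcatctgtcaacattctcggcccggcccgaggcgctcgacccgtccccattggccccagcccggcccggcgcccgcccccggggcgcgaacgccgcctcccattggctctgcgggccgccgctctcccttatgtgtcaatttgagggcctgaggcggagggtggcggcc

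The deposited values are intensities on a linear scale. A log2 change below is a difference in log2 of the intensity plus 16, taken from limma, and passed when its Benjamini-Hochberg adjusted p over 16175 genes lay under 0.05. "Rose" and "fell" are used only for what passed. The value after ± is an SD for an intensity and a standard error for a log2 change, with n = 3 arrays a group. Each gene is given by 1 probe set, the one whose mean intensity over the 24 arrays was highest. The dose comparisons of a line share its DMSO arrays.

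The array median ran from 23.4 to 25.5 on the 12 SJSA-1 arrays, from 33.5 to 34.5 on 9 arrays of U2-OS (all but the highest dose), and from 36.6 to 37.3 on its 3 arrays at 400 nM. Pairs of arrays within these sets shared exactly the same value for 0.854% to 5.47% of probe sets, and pairs from different sets for at most 0.00406%. They were therefore treated as normalized apart, and in U2-OS the 400 nM dose and the normalization set cannot be told apart. On 12 poly-A spike-in probe sets the mean log2 intensity in SJSA-1 was 6.54, 7.01 and 7.33 with DMSO, 7.45 on the lowest of the arrays with 100 nM THZ2, and 7.84, 9.0 and 7.33 with 400 nM. In U2-OS it ran from 5.57 to 5.63 with DMSO, from 6.08 to 6.14 with 100 nM and from 5.82 to 6.23 with 400 nM. All 100 nM arrays thus lay above the DMSO arrays of their line, and the 9.0 was that of 1 array, replicate 2. Of 10 bone lineage markers, 7 to 9 reached the floor of 12.7 in any group, with VIM the brightest. An extraction protocol in the labels names nervous tissue, and of 9 nervous tissue markers 4 to 5 reached the floor in SJSA-1 and 6 to 7 in U2-OS, with summed intensities of 143 to 213 in SJSA-1 and 640 to 974 in U2-OS. In U2-OS most of that sum was NEFL, at 418 with DMSO. Of 6 blood markers 3 to 4, and of 7 epithelium markers 5 to 7, reached the floor in any group. The part of these markers in the results was not tested. Each comparison was also fitted with arrays centred on the spike-ins, and those values stand beside the member calls they changed.

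At 100 and 400 nM most members moved, in both directions, and at 25 nM few did. In SJSA-1, 9 of 10 members changed at 100 nM, 5 rising and 4 falling. Of all genes tested, 49.4% changed there, 24.4% rising and 25.1% falling. At 400 nM, 9 members changed as well, 3 rising and 6 falling, where 66.4% of all genes did (41.4% rose and 24.9% fell). At 25 nM, 2 changed, where 8.25% of all genes did: 1 rose, where 1.97% of all genes rose, and 1 fell, where 6.28% fell. In U2-OS, 7 of 10 changed at 100 nM, 4 rising and 3 falling, against 42% of all genes (19.8% rose and 22.2% fell). At 400 nM, 7 changed, 3 rising and 4 falling, against 73.3% of all genes (48.4% rose and 25% fell). That total of 7 of 10 lies near the share of all genes. With arrays centred on the spike-ins, 1 member rose and 4 fell at 100 nM in SJSA-1, and 0 rose and 7 fell at 400 nM. In U2-OS 0 rose and 4 fell at 100 nM, and 2 rose and 4 fell at 400 nM. That centring moved all genes down, to a median log2 change of -0.23 at 100 nM and -0.51 at 400 nM in SJSA-1. In U2-OS that median was -0.33 and -0.17. The shares of all genes that rose or fell with it are not given here. At 25 nM in U2-OS, with the intensities as deposited, limma passed 0 of 10 members, and 0 had an unadjusted p under 0.05. Of all genes, 0.0804% passed there (0.0247% rose and 0.0556% fell). For the intensities as deposited, the median log2 change of the 10 at 100 nM was 0.093 in SJSA-1 and 0.074 in U2-OS. That of all genes was 0.057 and 0.058. At 400 nM it was -0.52 in SJSA-1 and 0.050 in U2-OS, where that of all genes was 0.10 and 0.15. In bulk RNA such as this, fewer cells with a transcript and less transcript per cell cannot be told apart.

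The 3 treated arrays lay wholly outside the 3 DMSO arrays for 7 of 10 members at 100 nM in SJSA-1, where 54.8% of all genes did, and for 9 at 400 nM, where 62.4% did. In U2-OS they did so for 8 members at 100 nM, where 65.6% of all genes did, and for 7 at 400 nM, where 81.5% did. At 25 nM they did so for 3 members in SJSA-1, where 17.6% of all genes did, and for 2 in U2-OS, where 24% did.

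**Figure D1:**
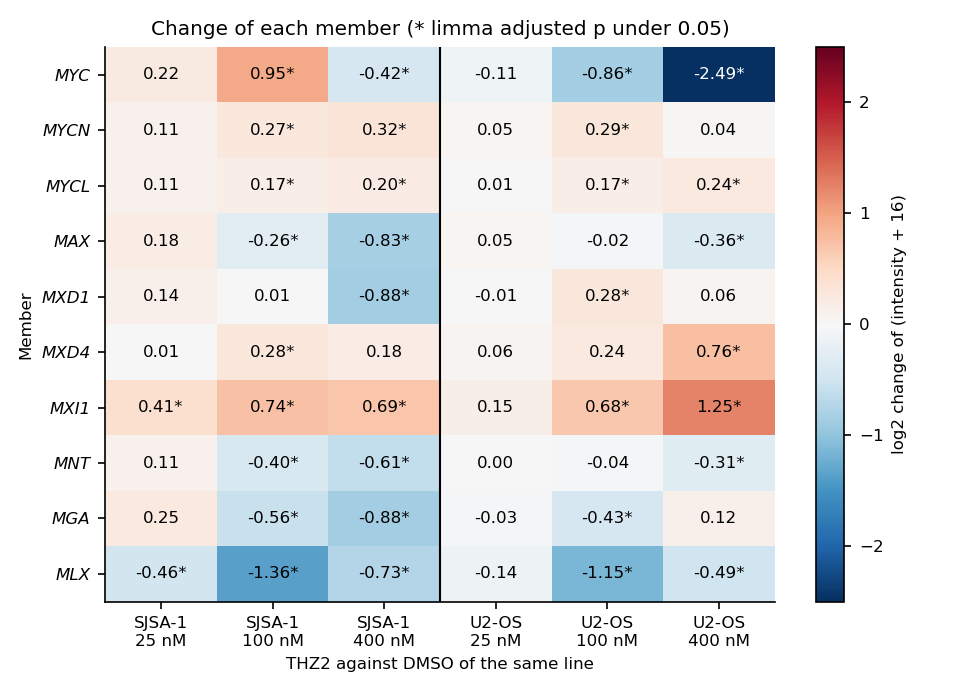
Log2 change of (intensity + 16) of each member against DMSO of the same line, by line and THZ2 dose in nM; an asterisk marks a limma adjusted p under 0.05. MYC is positive at 100 nM in SJSA-1 (0.95) and negative in U2-OS (-0.86), MXI1 is positive and MLX negative at 100 and 400 nM in both lines.

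MYC, the founding activator, moved in opposite directions in the lines at 100 nM. It is read by 1 probe set, 11745021_a_at. In SJSA-1 its intensity was 28.8, 37.3 and 34.3 with DMSO, 48.2, 34.1 and 43.1 with 25 nM, 81.0, 85.6 and 72.0 with 100 nM, and 16.6, 19.8 and 26.9 with 400 nM. All 3 arrays with 100 nM lay above every other SJSA-1 array, and all 3 with 400 nM below them, while 25 nM and DMSO overlapped. In U2-OS its intensity was 796, 839 and 742 with DMSO, 733, 715 and 746 with 25 nM, 425, 423 and 439.5 with 100 nM, and 113, 133.5 and 138 with 400 nM. The arrays with 25 nM overlapped those with DMSO, those with 100 nM lay below both, and those with 400 nM lowest.

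In SJSA-1 MYC rose by 0.95 ± 0.10 on the log2 scale at 100 nM (limma adjusted p = 8.78e-09), 79.5 ± 6.9 against 33.5 ± 4.3 in intensity, or 2.38-fold. At 400 nM it fell by 0.42 ± 0.10 (adjusted p = 0.000974), to 21.1 ± 5.3 against 33.5 ± 4.3 with DMSO. At 25 nM the change was 0.22 ± 0.10 (adjusted p = 0.240). In U2-OS MYC fell by 0.86 ± 0.10 at 100 nM (adjusted p = 7.99e-08), to 429 ± 8.8 against 792 ± 48 with DMSO. At 400 nM it fell by 2.49 ± 0.10 (adjusted p = 9.85e-18), to 128 ± 13 in intensity, 6.17-fold lower than with DMSO. At 25 nM its change was -0.11 ± 0.10 (adjusted p = 1.0). With arrays centred on the spike-ins, the rise in SJSA-1 at 100 nM was 0.48 (adjusted p = 0.0497), the fall at 400 nM was -0.79, and the fall in U2-OS at 100 nM was -1.36.

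In order of level, MYC was brightest in U2-OS with DMSO (792), then 25 nM (731), 100 nM (429) and 400 nM (128), followed by SJSA-1 with 100 nM (79.5), 25 nM (41.8), DMSO (33.5) and 400 nM (21.1). Of neighbours in this order, 25 nM and DMSO overlapped in each line, and the others did not. Levels across the lines come from values normalized apart and were not tested. The plot of MYC by array shows both courses on 1 axis.

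**Figure D2:**
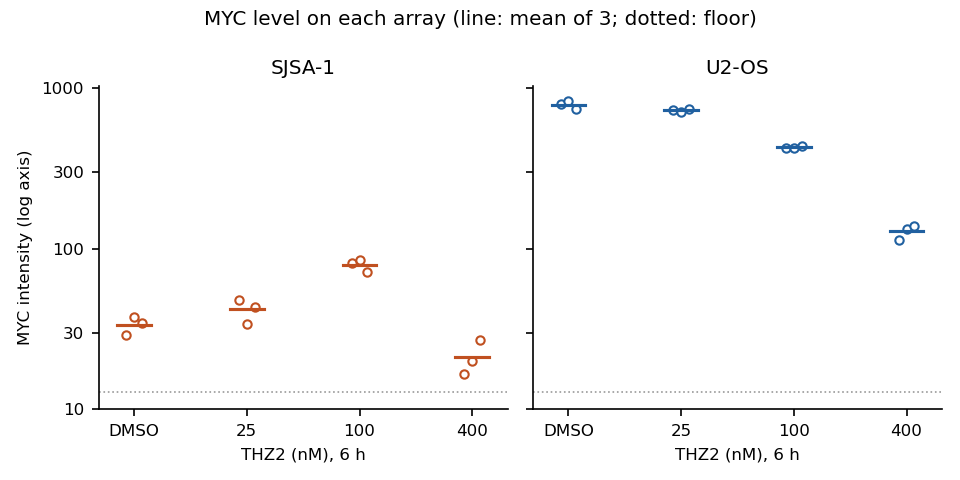
MYC intensity on a log axis against THZ2 dose, 1 point per array, with the mean of 3 as a line and the floor of 12.7 dotted; SJSA-1 left, U2-OS right. In SJSA-1 the 100 nM arrays sit highest (72.0 to 85.6) and the 400 nM arrays lowest (16.6 to 26.9), and in U2-OS the points go down from 792 on average with DMSO to 128 with 400 nM.

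MYCN, the paralogue known from neuroblastoma, was dim and rose slightly. In SJSA-1 its intensity was 20.8, 18.3 and 20.3 with DMSO, 17.8, 28.2 and 22.3 with 25 nM, 31.1, 22.2 and 28.4 with 100 nM, and 32.2, 25.8 and 28.2 with 400 nM. The arrays with 100 and 400 nM lay above those with DMSO. In U2-OS the group means were 42.5 ± 3.0 with DMSO, 44.4 ± 1.9 with 25 nM, 55.3 ± 3.4 with 100 nM and 44.0 ± 3.3 with 400 nM. It rose by 0.27 ± 0.085 at 100 nM and by 0.32 ± 0.085 at 400 nM in SJSA-1 (adjusted p = 0.0109 and 0.00205), and by 0.29 ± 0.085 at 100 nM in U2-OS (adjusted p = 0.00835). The rise at 100 nM in SJSA-1 was 0.20 without its 100 nM replicate 1 (adjusted p = 0.0818). Centring on the spike-ins turned all 3 rises to changes between -0.21 and -0.051 that did not pass. The change at 400 nM in U2-OS was 0.036 ± 0.085 (limma adjusted p = 0.710). The other tested probe set of MYCN, 11719868_a_at, rose at 100 and 400 nM in both lines. At 400 nM in U2-OS it rose by 0.43, 28.5 ± 1.5 against 17.1 ± 1.4 with DMSO.

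MYCL, first found in small cell lung cancer, was dim too. Its intensity in SJSA-1 was 15.4 ± 1.6 with DMSO, 17.8 ± 1.3 with 25 nM, 19.4 ± 3.2 with 100 nM and 20.02 ± 1.6 with 400 nM. In U2-OS it was 27.7 ± 1.5, 28.0 ± 0.76, 33.2 ± 3.0 and 35.8 ± 3.0 at the same doses. The largest of its passing changes was 0.24 ± 0.066 at 400 nM in U2-OS (adjusted p = 0.00170), and the others lay between 0.17 and 0.20. The call at 100 nM was lost without any of 4 single arrays in each line: DMSO replicates 1 and 3 and 100 nM replicates 1 and 3 in SJSA-1 (0.12 to 0.16), and DMSO replicates 1 and 2 and 100 nM replicates 1 and 2 in U2-OS (0.14 to 0.16). At 400 nM in SJSA-1 it was lost without 400 nM replicate 2 (0.16, adjusted p = 0.0547), with ribosomal protein centring (0.13, adjusted p = 0.0744) and with the mean of the probe sets (0.056, adjusted p = 0.0827). At 100 nM ribosomal protein centring gave 0.14 (adjusted p = 0.0846) and the mean of the probe sets 0.051 (adjusted p = 0.137) in SJSA-1, and median-centred arrays gave 0.16 (adjusted p = 0.0551) in U2-OS. With spike-in centring all 4 rises turned to changes from -0.25 to -0.044. The other tested probe set of MYCL, 11728523_a_at, changed by -0.055 at 100 nM and -0.043 at 400 nM in SJSA-1, and by 0.073 and 0.030 in U2-OS, and passed in none of these.

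MAX, the partner that the MYC and MXD proteins share, fell at the highest dose in both lines by the probe set that stands for it. In SJSA-1 its intensity was 272, 307 and 274 with DMSO, 319.6, 329 and 324 with 25 nM, 229, 269 and 209 with 100 nM, and 156, 167 and 138 with 400 nM. The 400 nM arrays lay below all others, and those with 25 nM above all others. In U2-OS it was 501, 523 and 517 with DMSO, 528, 525 and 549 with 25 nM, 496, 525 and 498 with 100 nM, and 388, 406 and 394 with 400 nM. Only the 400 nM arrays stood below the rest there.

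MAX fell by 0.83 ± 0.082 at 400 nM in SJSA-1 (adjusted p = 1.22e-09), 154 ± 14 against 284 ± 19, and by 0.36 ± 0.082 in U2-OS (adjusted p = 0.000277), 396 ± 8.9 against 514 ± 12. At 100 nM it fell by 0.26 ± 0.082 in SJSA-1 (adjusted p = 0.0101), and its change in U2-OS was -0.020 ± 0.082 (adjusted p = 0.852). At 25 nM in SJSA-1 its change of 0.18 ± 0.082 did not pass (limma adjusted p = 0.222). The call at 100 nM in SJSA-1 was lost without DMSO replicate 2 (-0.21, adjusted p = 0.0589) and without 100 nM replicate 3 (-0.18, adjusted p = 0.0870). It was also lost in a limma fit of only the groups compared (-0.26, adjusted p = 0.106).

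The other probe sets of MAX did not all follow. Of 11 tested at 400 nM, 1 rose and 4 fell in SJSA-1, and 3 rose and 3 fell in U2-OS. Probe set 11728150_at rose by 0.49 ± 0.069 at 100 nM and by 0.39 ± 0.069 at 400 nM in SJSA-1, and by 0.34 ± 0.069 and 0.77 ± 0.069 in U2-OS. Which transcripts each probe set reads is not given in the sources used here. With the mean of all probe sets in place of the brightest, MAX changed by 0.052 at 100 nM in SJSA-1 and by 0.013 at 400 nM in U2-OS, neither of which passed.

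MXI1, an antagonist that takes MAX away from MYC, was higher with THZ2 in both lines. In SJSA-1 its intensity was 168, 187 and 167 with DMSO, 239, 258 and 212 with 25 nM, 304, 340.1 and 263 with 100 nM, and 278, 258 and 338 with 400 nM. Every treated array lay above every DMSO array. In U2-OS it was 456, 483 and 456 with DMSO, 510.0, 512 and 536 with 25 nM, 700.3, 808 and 758 with 100 nM, and 1029, 1218 and 1137 with 400 nM. The 4 groups there did not overlap.

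MXI1 rose by 0.41 ± 0.098 at 25 nM (adjusted p = 0.00695), 0.74 ± 0.098 at 100 nM (adjusted p = 3.31e-07) and 0.69 ± 0.098 at 400 nM (adjusted p = 1.00e-06) in SJSA-1. In U2-OS it rose by 0.68 ± 0.098 at 100 nM (adjusted p = 1.85e-06) and by 1.25 ± 0.098 at 400 nM (adjusted p = 7.67e-12), where it was 2.43-fold the DMSO level. The change at 25 nM in U2-OS was 0.15 ± 0.098 (adjusted p = 1.0). All 5 probe sets of MXI1 rose at 100 and at 400 nM in both lines, by 0.21 to 1.25. Without 25 nM replicate 2, the change at 25 nM in SJSA-1 was 0.35 (adjusted p = 0.0534). With spike-in centring the change at 25 nM in SJSA-1 was 0.32, and did not pass. At 100 nM it was then 0.23 in SJSA-1 and 0.19 in U2-OS, neither passing. At 400 nM it was -0.29 in SJSA-1 (adjusted p = 0.298) and 0.84 in U2-OS (adjusted p = 0.00856).

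MXD4, an antagonist linked to differentiation, rose at 400 nM in U2-OS. Its intensity there was 45.6, 42.0 and 37.6 with DMSO, 42.1, 44.2 and 46.5 with 25 nM, 47.5, 54.1 and 55.1 with 100 nM, and 74.8, 77.2 and 93.5 with 400 nM, so the 400 nM arrays stood above all others. The change at 400 nM was 0.76 ± 0.11 (adjusted p = 5.15e-07), 1.96-fold. At 100 nM in U2-OS the change was 0.24 ± 0.11 (limma adjusted p = 0.0707). It passed with quantile normalization (0.30, adjusted p = 0.0206) and in a fit of only the groups compared (adjusted p = 0.00728). In SJSA-1 its intensity was 44.3, 58.5 and 72.5 with DMSO, 60.5, 62.2 and 52.3 with 25 nM, 75.6, 81.6 and 64.4 with 100 nM, and 75.1, 64.4 and 62.2 with 400 nM. The spread of the DMSO arrays covered most of the treated ones. It rose by 0.28 ± 0.11 at 100 nM in SJSA-1 (adjusted p = 0.0307), a call that was lost without DMSO replicate 1 (0.14), DMSO replicate 2 (0.29) or 100 nM replicate 1 or 2 (0.27 and 0.22). The change at 400 nM there was 0.18 ± 0.11 (adjusted p = 0.149), and 0.31 without DMSO replicate 3 (adjusted p = 0.0153). The call at 400 nM in SJSA-1 took opposite directions under different scalings: MXD4 fell with spike-in centring (-0.54, adjusted p = 0.00552), and rose with median-centred arrays (0.25, adjusted p = 0.0427), with quantile normalization (0.34, adjusted p = 0.00690) and with the mean of the probe sets (0.22, adjusted p = 0.0138). At 100 nM in SJSA-1 it was -0.13 with spike-in centring and 0.24 with ribosomal protein centring, neither passing.

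MXD1, the first antagonist described, was dim and fell at 400 nM in SJSA-1 by the probe set that stands for it. Its intensity there was 28.2, 24.4 and 21.6 with DMSO, 26.9, 27.9 and 31.3 with 25 nM, 22.3, 32.2 and 21.4 with 100 nM, and 5.82, 5.31 and 7.31 with 400 nM. The 400 nM arrays lay under the floor of 12.7, so only a bound can be given: MXD1 was at least 1.94-fold lower than with DMSO. Its measured means were 6.15 ± 1.0 with 400 nM and 24.7 ± 3.4 with DMSO (log2 change -0.88 ± 0.075, adjusted p = 5.97e-11). In U2-OS it was 14.6 ± 0.53 with DMSO, 14.4 ± 1.1 with 25 nM, 21.2 ± 2.1 with 100 nM and 15.98 ± 2.1 with 400 nM. It rose there by 0.28 ± 0.075 at 100 nM (adjusted p = 0.00340), and by 0.51 if 1 is added to the intensity in place of 16. With spike-in centring that change was 0.024, and did not pass. The other probe set of MXD1, 11750016_a_at, had group means of 8.94 with DMSO, 9.49 with 25 nM, 13.1 with 100 nM and 9.96 with 400 nM in SJSA-1, so that only the 100 nM mean reached the floor. It changed by 0.058 ± 0.051 at 400 nM there (adjusted p = 0.329), and rose by 0.22 ± 0.051 at 100 nM in SJSA-1 and by 0.19 ± 0.051 at 400 nM in U2-OS. With the mean of both probe sets MXD1 rose by 0.12 at 100 nM in SJSA-1 (adjusted p = 0.0352) and by 0.13 at 400 nM in U2-OS (adjusted p = 0.0161).

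MNT, the antagonist that is present in most cells, fell by the probe set that stands for it and rose by its other one. Probe set 11744056_at read 59.7, 71.0 and 57.3 with DMSO, 82.7, 64 and 60.1 with 25 nM, 47.8, 47.5 and 35.5 with 100 nM, and 29.2, 44.3 and 33.6 with 400 nM in SJSA-1. Both higher doses lay below DMSO on all arrays. It fell by 0.40 ± 0.10 at 100 nM and by 0.61 ± 0.10 at 400 nM in SJSA-1 (adjusted p = 0.00204 and 1.35e-05), and by 0.31 ± 0.10 at 400 nM in U2-OS (adjusted p = 0.00989). Without 400 nM replicate 1, that change in U2-OS was -0.26 (adjusted p = 0.0516). At 100 nM in U2-OS the change was -0.040 ± 0.10 (limma adjusted p = 0.772), and with spike-in centring a fall of 0.48 (adjusted p = 0.0137).

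Probe set 11752262_a_at of MNT rose by 0.37 ± 0.11 at 100 nM and by 0.41 ± 0.11 at 400 nM in SJSA-1 (adjusted p = 0.00597 and 0.00203 over 37944 probe sets), and by 0.54 ± 0.11 at 400 nM in U2-OS (adjusted p = 8.42e-05). In SJSA-1 it read 63.1, 69.1 and 52.0 with 400 nM and 39.1, 38.6 and 48.2 with DMSO. The 2 probe sets of MNT gave opposite directions. The mean of the 2 gave -0.015 at 100 nM and -0.098 at 400 nM in SJSA-1 and 0.12 at 400 nM in U2-OS, none passing.

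MGA, the large protein that carries MAX into PRC1.6, fell at 100 nM in both lines. In SJSA-1 probe set 11743706_a_at read 115, 105 and 89.9 with DMSO, 135, 129.8 and 112 with 25 nM, 62.7, 81.6 and 52.3 with 100 nM, and 42.5, 50.6 and 53.4 with 400 nM. The arrays with 100 and 400 nM lay below those with DMSO. In U2-OS it read 70.8, 90.6 and 71.7 with DMSO, 70.8, 78.4 and 77.8 with 25 nM, 51.0, 56.4 and 52.7 with 100 nM, and 65.7, 104 and 89.9 with 400 nM. Only the 100 nM arrays stood apart there.

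MGA fell by 0.56 ± 0.13 at 100 nM and by 0.88 ± 0.13 at 400 nM in SJSA-1 (adjusted p = 0.000560 and 1.07e-06), and by 0.43 ± 0.13 at 100 nM in U2-OS (adjusted p = 0.00725). That fall in U2-OS was -0.33 without DMSO replicate 2 (adjusted p = 0.0642). At 400 nM in U2-OS the change was 0.12 ± 0.13 (adjusted p = 0.398). A second probe set, 11758283_s_at, fell further and at both doses in both lines. The third, 11751875_a_at, did not pass at 100 nM (-0.15 in SJSA-1 and -0.022 in U2-OS) or at 400 nM in SJSA-1 (-0.11), and fell at 400 nM in U2-OS. The values that follow are those of 11758283_s_at. In SJSA-1 it read 21.4, 29.0 and 22.5 with 100 nM and 64.4, 59.7 and 52.7 with DMSO. In U2-OS it fell by 1.46 ± 0.089 at 400 nM (adjusted p = 2.17e-13), to 46.0 ± 3.8 against 154 ± 7.9. With the mean of the 3 probe sets, MGA changed by -0.54 at 400 nM in U2-OS (adjusted p = 4.08e-07).

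MLX, the centre of the parallel network that also serves the glucose sensors, fell at 100 and 400 nM in both lines, with its lowest intensities at 100 nM. In SJSA-1 its intensity was 383, 505 and 446 with DMSO, 311, 349.7 and 294 with 25 nM, 151, 174 and 163 with 100 nM, and 276, 267 and 237 with 400 nM. The 100 nM arrays were lowest, and those with 400 nM lay between them and the 25 nM arrays. In U2-OS it was 262, 255 and 247 with DMSO, 248, 223 and 221 with 25 nM, 95.1, 110.2 and 114 with 100 nM, and 172, 184 and 175 with 400 nM. The 100 nM arrays were lowest here too.

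MLX fell by 0.46 ± 0.094 at 25 nM (adjusted p = 0.00161), 1.36 ± 0.094 at 100 nM (adjusted p = 1.15e-12) and 0.73 ± 0.094 at 400 nM (adjusted p = 1.83e-07) in SJSA-1, so that it was 2.73-fold lower at 100 nM. In U2-OS it fell by 1.15 ± 0.094 at 100 nM (adjusted p = 5.65e-11), or 2.39-fold, and by 0.49 ± 0.094 at 400 nM (adjusted p = 4.49e-05), while its change at 25 nM was -0.14 ± 0.094 (adjusted p = 1.0). All 6 probe sets fell at 100 nM in both lines, and all 6 fell at 25 and at 400 nM in SJSA-1. At 400 nM in U2-OS 5 fell, and 11735098_a_at rose by 0.51 ± 0.064, 34.9 ± 1.9 against 19.7 ± 1.1. With spike-in centring the change at 25 nM in SJSA-1 was -0.53 (adjusted p = 0.650).

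**Figure D3:**
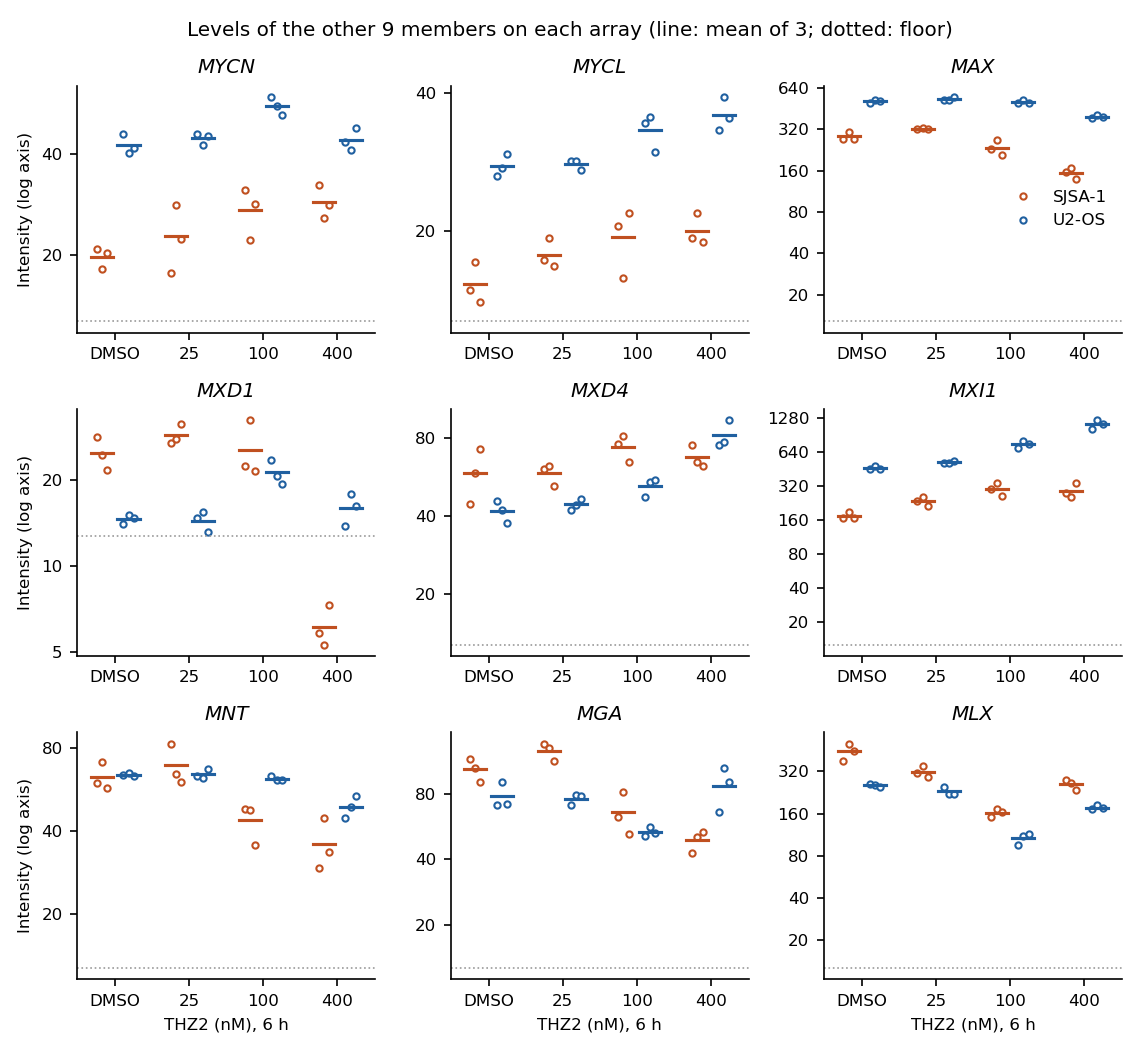
Intensity of the other 9 members on a log axis against THZ2 dose, 1 point per array, SJSA-1 orange and left, U2-OS blue and right at each dose, with the mean of 3 as a line and the floor of 12.7 dotted. MXI1 goes up and MLX is lowest at 100 nM in both lines, and MXD1 in SJSA-1 is under the floor at 400 nM (5.31 to 7.31).

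Whether the effect grew from 100 to 400 nM was tested in SJSA-1, where both doses belong to 1 set. Of 10 members, 3 were lower at 400 than at 100 nM and 1 was higher, where 26.6% of all genes changed (11.7% fell and 14.9% rose). MYC was lower by 1.37 ± 0.10 (adjusted p = 1.56e-11), 21.1 ± 5.3 against 79.5 ± 6.9, and MAX by 0.57 ± 0.082 (adjusted p = 3.59e-06). MXD1 was lower by 0.89 ± 0.075 (adjusted p = 1.72e-10), at least 1.99-fold. MLX was higher at 400 nM by 0.63 ± 0.094 (adjusted p = 6.74e-06), 260.1 ± 20 against 163 ± 11, with all 6 of its probe sets higher. With spike-in centring this change of MLX was 0.12 (adjusted p = 0.718). MGA changed by -0.32 ± 0.13 (adjusted p = 0.0598), and passed without 100 nM replicate 3 (-0.44) or 400 nM replicate 3 (-0.37). MNT changed by -0.21 ± 0.10 (adjusted p = 0.140), and passed without 100 nM replicate 3 (-0.31) or 400 nM replicate 2 (-0.32).

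Whether the lines differed in their response was tested as the effect in SJSA-1 minus that in U2-OS, at the 2 doses that lie in the same set as DMSO in both lines. At 100 nM, 1 of 10 members differed, where 16.9% of all genes did (7.15% positive and 9.74% negative). It was MYC, by 1.81 ± 0.15 (adjusted p = 3.82e-10), with a 95% interval from 1.51 to 2.11. The difference was 0.062 for MXI1 with an interval from -0.22 to 0.35, and -0.21 for MLX with an interval from -0.49 to 0.062. With the mean of its probe sets in place of the brightest, MLX differed by -0.36 and passed (adjusted p = 0.0122). For MNT the difference was -0.36 (adjusted p = 0.0919), for MXD1 -0.27 (adjusted p = 0.0846) and for MAX -0.24 (adjusted p = 0.174). That of MXD1 passed without SJSA-1 DMSO replicate 3 (-0.33) and, with that of MAX (-0.33), without SJSA-1 100 nM replicate 2 (-0.39). At 25 nM limma passed 0 of 10, with 2 at an unadjusted p under 0.05, where 1.09% of all genes passed. The difference of MYC at 25 nM was 0.33 ± 0.15 (adjusted p = 0.457).

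**Figure D4:**
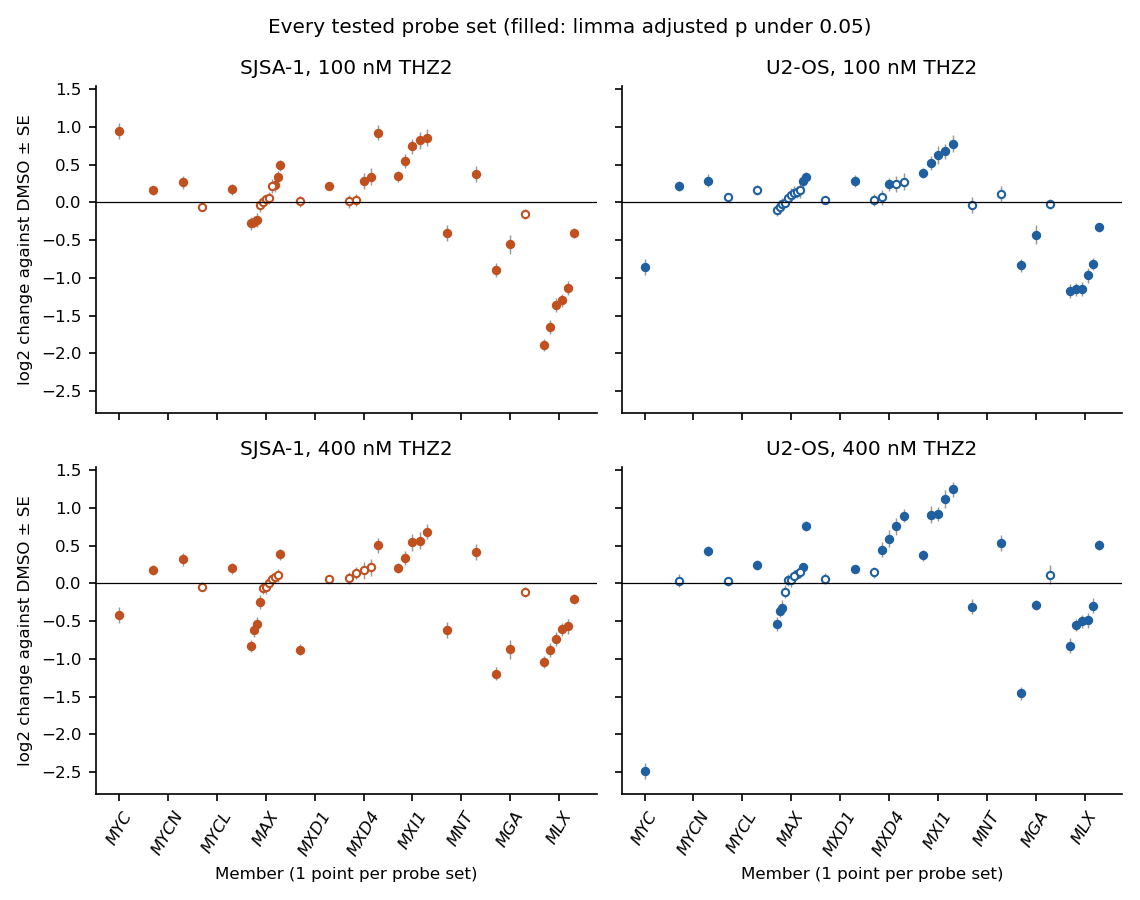
Log2 change against DMSO of each of the 39 probe sets tested, with its SE as a bar, grouped by member, for 100 nM (top) and 400 nM (bottom), SJSA-1 left and U2-OS right; filled points have a limma adjusted p under 0.05. The points of MXI1 all lie above 0 and those of MLX all below 0 at 100 nM, while those of MAX and MNT lie on both sides.

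Of the 44 probe sets, 39 reached the floor in at least 1 group and were tested. The other 5, of which 1 reads MAX, 2 read MYCN and 2 read MYCL, had group means of at most 12.2. Tested 1 by 1, 17 rose and 12 fell at 100 nM in SJSA-1, where 25.2% of all 37944 probe sets rose and 22.5% fell. In U2-OS 11 rose and 9 fell at 100 nM, where 17.6% rose and 18.9% fell. At 400 nM 11 rose and 15 fell in SJSA-1, where 36% of all rose and 23.4% fell, and 17 rose and 12 fell in U2-OS, where 48.4% rose and 22.7% fell. At 25 nM 2 rose and 6 fell in SJSA-1, where 1.79% rose and 5.06% fell, and limma passed 0 in U2-OS, where 0.0264% rose and 0.0369% fell. The response of the lines differed at 100 nM for 2 probe sets upward and 2 downward, where 6.9% and 8.54% of all did. Among the 5 probe sets of MXD4, 11763312_at stood out in SJSA-1, with a rise of 0.92 ± 0.10 at 100 nM (adjusted p = 2.16e-08), 64.2 ± 11 against 26.2 ± 4.7. The other 4 changed by 0.015 to 0.34 there, and 2 of them rose.

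The genes whose course was most like that of each member were sought among 16174 others, by Pearson correlation over the 18 treated arrays, each set against the DMSO mean of its own line. The arrays share a line and a normalization set, so these values are a description. The 3 most like MYC were NAP1L2 (r = 0.968), a nucleosome assembly protein, TMEM170A (0.963) and SH3GLB1 (0.957), which takes part in membrane remodelling. TMEM170A changed by 0.55 at 100 nM and by -0.18 at 400 nM in SJSA-1, and by -0.20 and -1.41 in U2-OS. The genes most like MXI1 were P4HA2 (0.982), a collagen prolyl hydroxylase, PSAP (0.966), which encodes a lysosomal precursor, and CHD3 (0.957), a chromatin remodeller. Those most like MLX were STK40 (0.970), CYTH2 (0.968) and FAF2 (0.966). FAF2, a factor of protein degradation at the endoplasmic reticulum, changed by -1.47 at 100 nM and by -0.81 at 400 nM in SJSA-1, and by -1.18 and -0.29 in U2-OS.

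MAX was followed most closely by STX3 (0.982), MTF1 (0.978) and SAP30BP (0.977), and MTF1, a metal-responsive factor, also came after PIK3R3 (0.961) and MIGA2 (0.931) for MNT (0.926). MXD1 was most like HIC2 (0.973), GATA2 (0.968) and SMAD7 (0.968), which encode 2 transcription factors and an inhibitor of TGF-beta signalling. At 400 nM in SJSA-1 their log2 changes were -1.94, -1.89 and -1.80. MGA was most like RTF1 (0.957), MTUS1 (0.953) and RIN2 (0.949), and MXD4 most like RTF2 (0.968), GUSB (0.966) and NHP2 (0.964). The dim MYCN and MYCL had lower top values, 0.890 with CX3CL1 and 0.870 with KRT75.

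Further genes of the network were taken as lists by their known roles. Of the other network members, MLXIP, the glucose sensor that pairs with MLX, fell by 0.69 ± 0.099 at 100 nM in SJSA-1 (adjusted p = 1.31e-06), 116.5 ± 2.6 against 199 ± 30, and by 0.30 ± 0.099 in U2-OS (adjusted p = 0.0157). MXD3, a further antagonist, fell by 0.44 ± 0.11 in SJSA-1, and its change in U2-OS was -0.15 ± 0.11 (adjusted p = 0.263). MLXIPL rose by 0.28 ± 0.085 in SJSA-1.

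Among cofactors and regulators of MYC protein, 1 of 25 rose and 10 fell at 100 nM in SJSA-1, where 24.4% of all genes rose and 25.1% fell, and the median change was -0.12 (all genes 0.057). In U2-OS 6 rose and 8 fell, where 19.8% of all genes rose and 22.2% fell, with a median of 0.050 (all genes 0.058). KAT5, the TIP60 acetyltransferase that MYC recruits, fell by 1.58 ± 0.090 in SJSA-1, 108 ± 15 against 353 ± 47, and by 0.77 ± 0.090 in U2-OS, 75.4 ± 3.6 against 140 ± 3.7. BPTF, of the NURF remodelling complex, fell by 1.30 ± 0.12 in SJSA-1 and 1.07 ± 0.12 in U2-OS. FBXW7, which marks MYC protein for degradation, fell by 0.71 ± 0.13 in SJSA-1, 51.2 ± 6.7 against 93.4 ± 6.2, and rose by 0.74 ± 0.13 in U2-OS, 245.5 ± 6.9 against 140.4 ± 5.7. The difference of its 2 effects was -1.45 ± 0.18 (limma adjusted p = 1.37e-06). ZBTB17, the MIZ1 protein through which MYC represses genes, rose by 0.51 ± 0.11 in SJSA-1 and by 0.52 ± 0.11 in U2-OS. AURKA, a kinase that shields MYCN protein, fell by 1.19 ± 0.11 in SJSA-1 and 0.36 ± 0.11 in U2-OS at 100 nM. At 400 nM it fell by 2.85 ± 0.11 in SJSA-1 and fell by 2.44 ± 0.11 in U2-OS.

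Of the SIN3 and HDAC corepressor that MXD proteins and MNT recruit, 3 of 14 genes rose and 7 fell at 100 nM in SJSA-1, with a median of -0.31, where 24.4% of all genes rose and 25.1% fell, with a median of 0.057. In U2-OS 4 rose and 6 fell, with a median of 0.15, where 19.8% of all genes rose and 22.2% fell, with a median of 0.058. The scaffold gene SIN3B fell by 1.46 ± 0.094 in SJSA-1, 66.3 ± 1.8 against 212 ± 37, and fell by 0.90 ± 0.094 in U2-OS, 101 ± 6.9 against 201 ± 9.1. SIN3A and SAP130 fell in both lines as well, SAP130 by 1.42 ± 0.097 and 0.76 ± 0.097. The deacetylase HDAC1 rose, by 0.29 ± 0.071 in SJSA-1 and 0.40 ± 0.071 in U2-OS, and so did the histone-binding RBBP7.

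In the PRC1.6 complex of MGA, 5 of 14 genes rose and 4 fell at 100 nM in SJSA-1 (median -0.017), where 24.4% of all genes rose and 25.1% fell. In U2-OS 2 rose and 5 fell (median -0.066), where 19.8% of all genes rose and 22.2% fell. E2F6, which binds DNA for the complex, fell by 0.89 ± 0.10 in SJSA-1 and 0.65 ± 0.10 in U2-OS. L3MBTL2, a reader of histone marks, fell by 0.93 ± 0.10 and 0.40 ± 0.10. The homologous subunits RYBP and YAF2 went opposite ways: RYBP rose by 1.33 ± 0.11 in SJSA-1 and 0.73 ± 0.11 in U2-OS, and YAF2 fell by 0.37 ± 0.091 and 1.22 ± 0.091. RYBP had 366 ± 32 against 136 ± 15 in SJSA-1, and 612 ± 51 against 362 ± 9.6 in U2-OS.

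Genes that MYC commonly activates were counted at the dose where MYC moved in opposite directions. At 100 nM in SJSA-1, 6 of 43 rose and 17 fell, with a median of -0.060, where 24.4% of all genes rose and 25.1% fell, with a median of 0.057. In U2-OS 2 rose and 14 fell, with a median of -0.019, where 19.8% of all genes rose and 22.2% fell, with a median of 0.058. At 400 nM 2 rose and 21 fell in SJSA-1, where 41.4% of all genes rose and 24.9% fell, and 7 rose and 24 fell in U2-OS, where 48.4% rose and 25% fell. The split at 400 nM in SJSA-1 moved with the scaling: 0 rose and 41 fell with spike-in centring, 1 rose and 29 fell with ribosomal protein centring, 8 rose and 19 fell with median-centred arrays, and 6 rose and 21 fell with quantile normalization. In U2-OS 0 rose and 22 fell at 400 nM with spike-in centring. With that centring the median of all genes at 400 nM was -0.51 in SJSA-1 and -0.17 in U2-OS. Those of the activated genes were -1.19 and -0.63. At 100 nM in U2-OS PPAN, a ribosome biogenesis factor, fell by 1.76 ± 0.11, 48.5 ± 8.7 against 202 ± 6.2, and RRS1, another, by 1.09 ± 0.097. Both also fell in SJSA-1, PPAN by 2.04 ± 0.11, 37.4 ± 2.7 against 206 ± 40, and RRS1 by 1.35 ± 0.097. CDC25A, a phosphatase of the cell cycle, fell by 1.46 ± 0.11 in SJSA-1, 72.8 ± 13 against 227 ± 17, and its change in U2-OS was 0.15 ± 0.11 (adjusted p = 0.278). Its 2 effects differed by -1.61 ± 0.16 (limma adjusted p = 1.49e-08). WDR74, a ribosome assembly gene, rose by 0.43 ± 0.12 in SJSA-1 and 0.30 ± 0.12 in U2-OS at 100 nM, and fell by 1.12 ± 0.12 and 0.79 ± 0.12 at 400 nM.

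**Figure D5:**
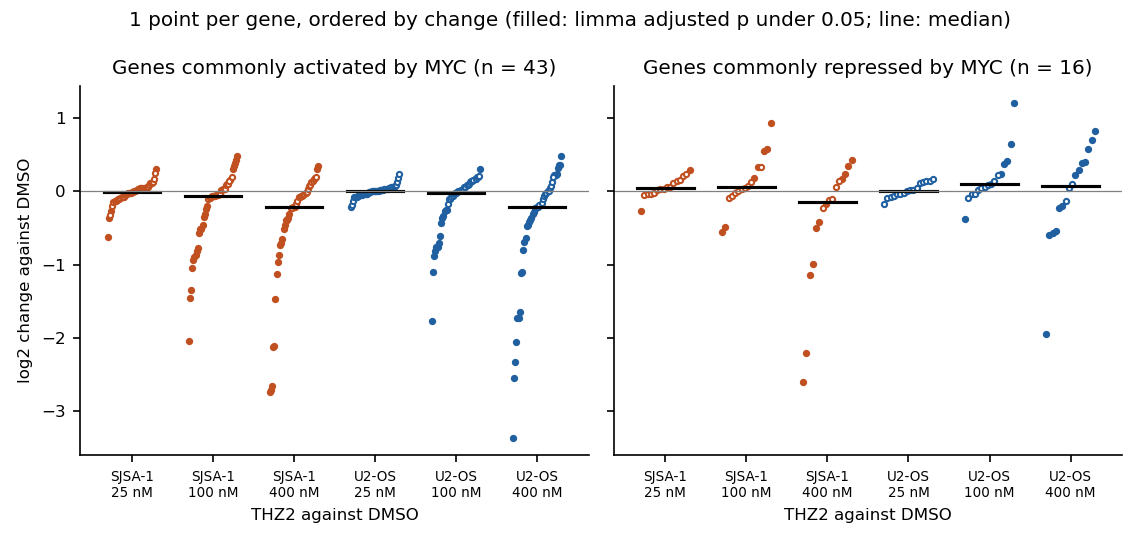
Log2 change against DMSO of the genes commonly activated (43, left) and repressed (16, right) by MYC, by line and dose; 1 point per gene in order of its change, filled where the limma adjusted p was under 0.05, with the median as a line. At 100 nM both lines have more filled points below 0 than above it among activated genes (17 against 6 in SJSA-1, 14 against 2 in U2-OS).

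Of 16 genes that MYC commonly represses, 5 rose and 2 fell at 100 nM in SJSA-1 (median 0.063), where 24.4% of all genes rose and 25.1% fell. In U2-OS 5 rose and 1 fell (median 0.095), where 19.8% of all genes rose and 22.2% fell. The stress gene GADD45B rose by 0.94 ± 0.093 in SJSA-1, 1508 ± 88 against 781 ± 63, and by 1.21 ± 0.093 in U2-OS, 1399 ± 46 against 596 ± 12. CDKN1C, a cyclin-dependent kinase inhibitor, rose by 0.56 ± 0.090 in SJSA-1 and 0.65 ± 0.090 in U2-OS. CEBPD, a differentiation factor, fell by 0.49 ± 0.10 in SJSA-1 and changed by 0.061 ± 0.10 in U2-OS (adjusted p = 0.648). At 400 nM 4 rose and 7 fell in SJSA-1, where 41.4% of all genes rose and 24.9% fell, and 7 rose and 6 fell in U2-OS, where 48.4% rose and 25% fell. With spike-in centring 0 rose and 14 fell at that dose in SJSA-1, and 1 rose and 5 fell in U2-OS. Their medians were then -1.16 and -0.23, where those of all genes were -0.51 and -0.17.

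Of 7 glucose-responsive genes that MLX drives with MLXIP or MLXIPL, 2 rose and 3 fell at 100 nM in SJSA-1, where 24.4% of all genes rose and 25.1% fell, and 2 rose and 2 fell in U2-OS, where 19.8% rose and 22.2% fell. TXNIP, which holds back glucose uptake, rose by 1.19 ± 0.11 in SJSA-1, 162 ± 28 against 61.3 ± 2.6, and by 0.29 ± 0.11 in U2-OS, 107 ± 4.6 against 85.0 ± 5.5. Its relative ARRDC3 rose by 0.64 ± 0.14 and 0.57 ± 0.14. PFKFB3, a regulator of glycolysis, fell by 1.23 ± 0.12 and 1.20 ± 0.12. KLF10 fell by 0.81 ± 0.11 in SJSA-1, and its change in U2-OS was 0.086 ± 0.11 (adjusted p = 0.518). LRATD2, a neighbour of the MYC gene, changed by -0.15 ± 0.091 at 100 nM in SJSA-1 and by 0.055 ± 0.091 in U2-OS, neither passing, and its SJSA-1 means at 100 nM and with DMSO lay under the floor.

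With arrays centred on the spike-ins, most rises in these lists at 100 nM were lost: 1 rise was left in SJSA-1 among the PRC1.6 genes and 1 among the MLX targets, and 1 in U2-OS among the repressed genes. With it, 0 of the 43 activated genes rose and 19 fell in SJSA-1, and 0 rose and 17 fell in U2-OS. The median of all genes was then -0.23 in SJSA-1 and -0.33 in U2-OS, and these medians were -0.58 and -0.50 for the activated genes.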

How the data were processed

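The authors deposited 1 intensity per probe set and array, on a linear scale and already normalized. Per the submitters' processing notes MAS5 and RMA were used, but which of them made these values, and in which versions, is not given in the sources used here. Columns were matched to the 24 arrays by sample identifier, and the titles gave the group and replicate. Of 49372 probe sets, 79 were controls, 44988 named 1 gene, 1832 several and 2473 none. Symbols were compared with the RefSeq table of GRCh38.p14, which held all 10 members.

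Here 16 was added to each intensity, log2 was taken, and a mean for each of the 8 groups was estimated from the 24 arrays together (limma 3.58.1, R 4.3.3, intensity trend, 16 residual degrees of freedom, 9 comparisons, Benjamini-Hochberg within each, threshold 0.05). A 3 against 3 permutation test cannot pass 0.05. The number of arrays limits the precision. Each gene was its brightest probe set. A gene was tested if any group mean reached 12.7, the value below which 30% of all intensities lie. This left 16175 of 18132 genes and all 10 members. The fits were tested on simulated data.

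The members and lists were chosen with earlier results of these data known. All members are named. Eligible from each list were up to 3 lowest and 2 highest changes among those that passed at 100 nM in each line, and, for each member, the 3 genes most correlated with it. Where a group mean lay under the floor, a bound was computed with each dim array set to at least 12.7. Alternatives were 13 settings of scaling, filter, probe set choice, pseudocount and model, and leaving out each of the 24 arrays.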

Additional observations from a re-analysis of the deposited data

Results flagged for a closer look

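The response of MYC to 100 nM THZ2 differed between the lines, as a test of the difference itself showed. Its log2 change was 0.95 in SJSA-1 and -0.86 in U2-OS, a difference of 1.81 ± 0.15 (limma, probe sets tested 1 by 1, adjusted p = 1.45e-09), with all 3 arrays of each line on their side of DMSO. The value was 1.85 with spike-in centring.

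The other 4 differences between the lines were flagged in single probe sets of MLX and MXD4. With the mean of its probe sets, MLX also differed at 100 nM, by -0.36 (limma adjusted p = 0.0122). MLX probe set 11751207_a_at differed by -0.49 ± 0.11 at 25 nM (adjusted p = 0.0265) and by -1.08 ± 0.11 at 100 nM (adjusted p = 7.97e-08). At 100 nM it read 27.9 ± 0.68 against 147 ± 13 with DMSO in SJSA-1, and 31.6 ± 2.3 against 67.6 ± 1.8 in U2-OS. MLX probe set 11743260_a_at differed by -0.47 ± 0.13 at 100 nM (adjusted p = 0.0159), while the 4 other MLX probe sets did not pass, with differences from -0.21 to -0.076. MXD4 probe set 11763312_at differed by 0.86 ± 0.14 at 100 nM (adjusted p = 8.95e-05), with changes of 0.92 in SJSA-1 and 0.065 in U2-OS. The other 4 probe sets of MXD4 differed by -0.22 to 0.067 and did not pass. With 3 arrays a group, single arrays were not tested for standing apart.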

How the results depend on the processing

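Of 1821 member values recomputed, 1744 kept their side of the threshold and, where they passed, their direction. Another 40 kept their sign and no longer passed, 23 kept their sign and passed newly, and 14 turned, that is changed sign. Of those that turned, only MXD4 (SJSA-1) and MGA (U2-OS), both at 400 nM, passed in the new fit, and neither had passed before. The rest of those that turned no longer passed, so none passed in both directions. Direction was not compared where a value passed in neither fit. For MYC, all 183 kept their side of the threshold and, where they passed, their direction. Centring on the spike-ins, where intensities were scaled before 16 was added, turned 10: MYCN to -0.10 at 100 nM in U2-OS and to -0.051 and -0.21 at 100 and 400 nM in SJSA-1, MYCL to -0.19 and -0.044 in U2-OS and -0.095 and -0.25 in SJSA-1 at the same doses, MXD4 to -0.13 and -0.54 and MXI1 to -0.29 (400 nM) in SJSA-1. Averaging all probe sets per gene turned MAX to 0.052 (SJSA-1, 100 nM) and 0.013 (U2-OS, 400 nM), MNT to 0.12 and MGA to -0.54 (both U2-OS, 400 nM). The cause was not tested. With spike-in centring 5 members changed at 100 nM in SJSA-1 (1 rose, 4 fell), 7 at 400 nM (0 rose, 7 fell), 0 at 25 nM, and 4 at 100 nM in U2-OS (0 rose, 4 fell). The median of all genes in these was -0.23, -0.51, -0.032 and -0.33. A fit of only the groups compared gave 1 at 25 nM in each line, and 6 in place of 9 at 100 nM in SJSA-1. In U2-OS it gave 8 in place of 7 at 100 nM, MXD4 being added. The calls of MYCL, MAX and MXD4 at 100 nM and of MXI1 at 25 nM in SJSA-1 were lost with that fit. The line difference at 100 nM passed for 2 members with ribosomal protein centring, MYC and MXD1 (-0.31). It passed for 2 with the mean of the probe sets, MYC and MLX (-0.36).

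Leaving out each array in turn, the members changed ranged from 6 to 8 at 100 nM, 8 to 10 at 400 nM and 1 to 2 at 25 nM in SJSA-1, from 5 to 7, 6 to 7 and 0 to 0 at these doses in U2-OS, from 4 to 6 for 400 against 100 nM, and from 0 to 0 and 1 to 3 for the line difference at 25 and 100 nM. Over 18 pairs of same-numbered arrays the correlation of deviations ran from -0.634 to 0.420, with 6 pairs over 0.1. With the replicate block, 5 members changed from 100 to 400 nM in place of 4, MGA being added at -0.32 (adjusted p = 0.0377), and no other call moved. Added to a dim gene, 1 or 64 in place of 16 moves its log2 change: MXD1 at 400 nM in SJSA-1 was -1.85 and -0.34, against -0.88.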
